A study of Mus musculus with 16 samples.

Results

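The genes described here are 10 genes of activated and regulatory T cells, out of 19938 genes with a value in whole mouse lung. They were taken by name, with earlier results of these data known, as Cd28, Icos, Ctla4, Cd27, Tnfrsf4, Il2ra, Foxp3, Gata3, Il10 and Il21. All 10 had exactly 1 probe set annotated with that symbol alone, and no gene was lost to a filter. The study measured lung RNA on 16 Affymetrix whole-transcript arrays, 4 in each of 4 groups. Wild-type mice (WT) were B6129SF2/J and were given saline or an extract of house dust mite (HDM), an airborne allergen used to model asthma. Vldlr-/- mice (KO), which lack the very low density lipoprotein receptor, received saline or HDM in the same way. Each challenge delivered 10 µl into the nose, with 25 µg of HDM in the HDM groups, and mice had 5 challenges a week over 6 weeks. The labels name no strain for the KO mice, and no age or number of animals per array. They do not say which part of Vldlr was disrupted. With no strain named for KO, loss of the receptor and strain background cannot be told apart in comparisons of KO with WT. The arrays of a group are described as biological replicates, and since separate animals are not stated, p-values reflect the spread between arrays, which may be partly technical.

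T cells become activated when the T cell receptor and a costimulatory receptor are engaged together. Cd28 gives the costimulatory signal when it binds Cd80 or Cd86, and Icos, a relative of Cd28, appears after activation and binds Icosl. Ctla4 competes for the ligands of Cd28 and restrains the response. Cd27 and Tnfrsf4 (OX40) are costimulators of the TNF receptor superfamily, with the ligands Cd70 and Tnfsf4. Il2ra is the alpha chain of the interleukin-2 receptor, carried by activated T cells and, constantly, by regulatory T cells. Foxp3 is the transcription factor that defines regulatory T cells, and Gata3 that of type 2 helper T cells and group 2 innate lymphoid cells. Il10 is an anti-inflammatory cytokine, and Il21 is a cytokine of helper T cells that acts on B cells. In the allergic lung, type 2 helper T cells drive eosinophilic inflammation and regulatory T cells hold it back.

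Levels are log2 values, 1 per probe set and array, and a change is a difference of group means on that scale, so 1 unit is a doubling. Array medians lay between 8.78 and 8.85. Lung markers were high on every array, with the surfactant gene Sftpc between 13.41 and 14.09 and the club cell gene Scgb1a1 between 11.82 and 13.66. Vldlr lay between 9.40 and 9.91 on the 8 KO arrays and between 10.27 and 10.92 on the 8 WT arrays, so no array went against its genotype label, although signal remained in KO. WT saline 2 and 3 had been set apart from the other arrays in an earlier examination of these data, and for the comparisons that use them the number of the 10 genes that passed is also given without them. A gene passed a test at a limma p-value under 0.05 after Benjamini-Hochberg adjustment over all 19938 genes. In whole lung, more T cells and more RNA per T cell cannot be told apart. The 4 pan-T genes Cd3d, Cd3e, Cd3g and Cd247 had a mean level between 9.56 and 9.89 on WT HDM arrays and between 9.65 and 9.70 on KO HDM arrays. Under saline it lay between 9.63 and 9.77 in WT and between 9.53 and 9.69 in KO.

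**Figure D1:**
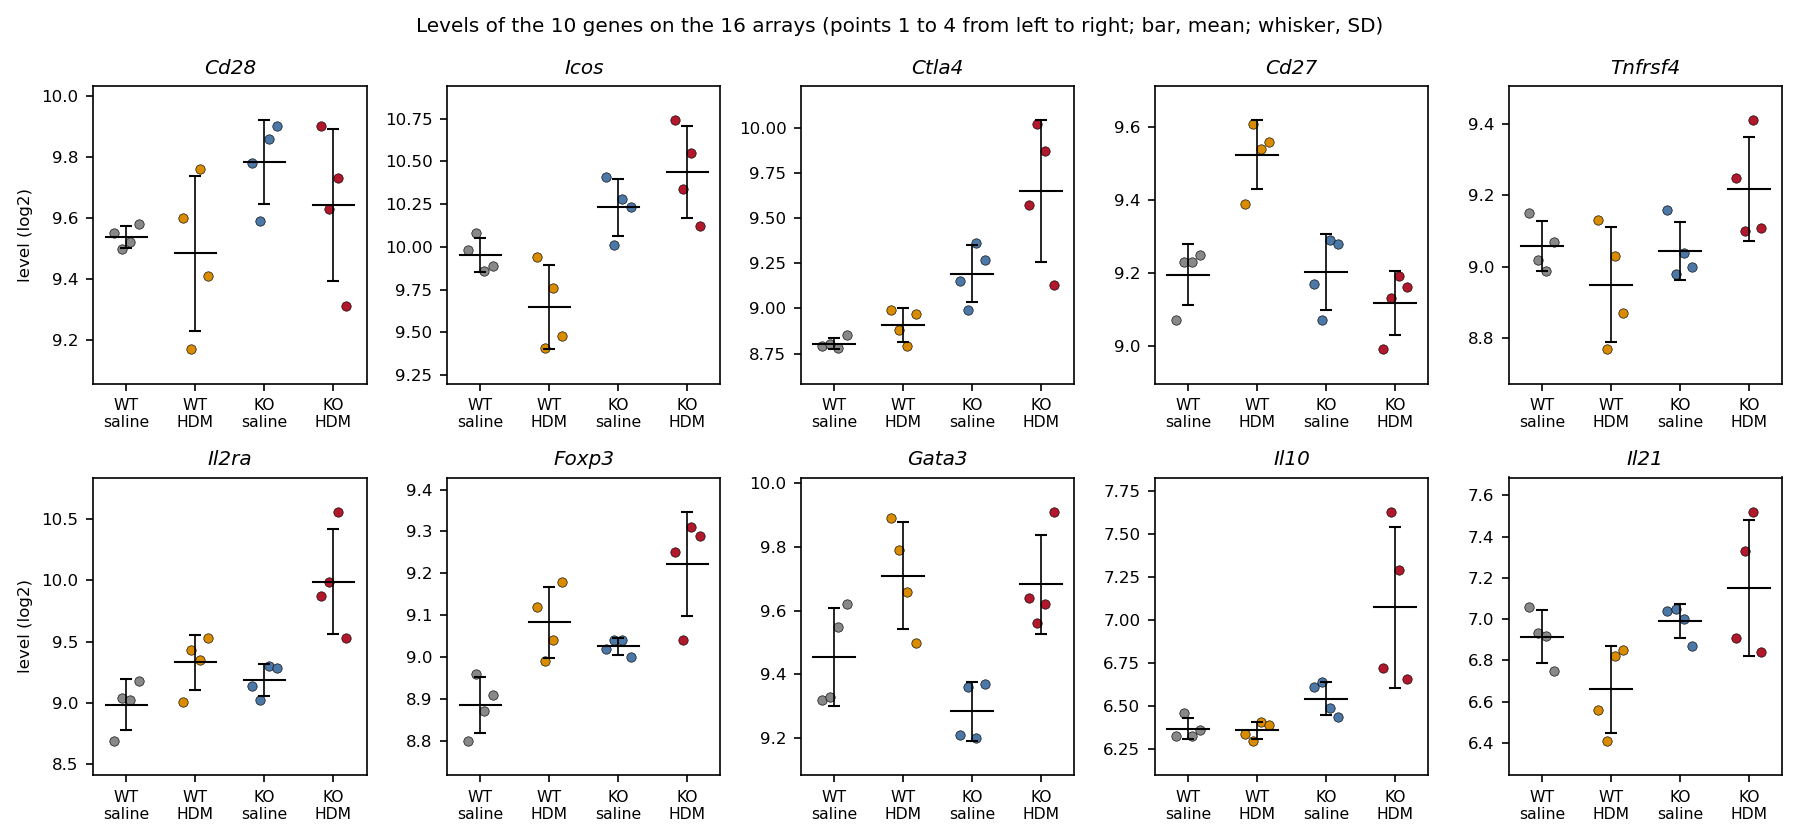
Log2 level (vertical axis) of each of the 10 genes in the 4 groups (horizontal axis). Points are arrays 1 to 4 of a group from left to right, bars are means and whiskers are SDs (n = 4). Icos, Ctla4 and Il10 on the KO HDM arrays all lay above the WT HDM arrays, Cd27 lay below, and KO HDM 4 was the lowest of its group for Cd28, Icos, Ctla4, Il2ra, Il10 and Il21.

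The comparison of KO with WT under HDM asked how the allergic lung differed between genotypes. Activation genes were higher in KO: Icos was 1.73-fold, Ctla4 1.67-fold, Il10 1.64-fold, Il2ra 1.57-fold, Il21 1.40-fold and Tnfrsf4 1.20-fold higher, while Cd27 was 1.33-fold lower (n = 4 per group). Thus 6 of the 10 genes were higher and 1 was lower by limma, where 11.7% of all genes passed, 5.84% higher and 5.83% lower. At an unadjusted p under 0.05 there were 8 of 10, against 26.5% of all genes. The median change was 0.37 over the 10 genes and 0.02 over all genes. The ranges of the groups did not overlap for 4 of the 10 genes, against 10.8% of all genes. The 10 genes were chosen with earlier results of these data known. Shares above those of all genes, here and in the comparisons below, are therefore no independent evidence that these genes stand out. Cd28, Foxp3 and Gata3 did not pass. In a fit of the 2 HDM groups alone, without the saline arrays, Icos, Ctla4 and Cd27 passed and the other 4 did not, and the count over all genes was 192 higher and 198 lower. Without KO HDM 3, 4 of the 10 passed (Icos, Ctla4, Il10 and Cd27). Over all genes that fit gave 525 higher and 594 lower, in place of 1164 and 1163.

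Among the CD28 family, Icos lay at 9.94, 9.41, 9.76 and 9.48 on WT HDM arrays 1 to 4. On KO HDM arrays 1 to 4 it lay at 10.74, 10.34, 10.55 and 10.12. Every KO array was above every WT array. The difference was 0.79 (SE 0.13, n = 4 per group, limma adjusted p = 0.0018). Ctla4, the inhibitory member, lay at 8.99, 8.88, 8.79 and 8.97 in WT HDM. In KO HDM it lay at 9.57, 10.02, 9.87 and 9.13, again with no overlap, and KO HDM 4 was close to the WT range. Its difference was 0.74 (SE 0.13, limma adjusted p = 0.00356). Cd28 itself lay at 9.60, 9.17, 9.76 and 9.41 in WT HDM and at 9.90, 9.63, 9.73 and 9.31 in KO HDM. The groups overlapped, and the difference of 0.16 had a 95% interval from -0.09 to 0.41 (limma adjusted p = 0.436).

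The TNF receptor superfamily genes went in opposite directions. Cd27 lay at 9.39, 9.61, 9.54 and 9.56 in WT HDM, and its 4 highest values of all 16 arrays were these. In KO HDM it lay at 8.99, 9.13, 9.19 and 9.16. Its difference was -0.41 (SE 0.07, limma adjusted p = 0.00218). Tnfrsf4 lay at 9.13, 8.77, 9.03 and 8.87 in WT HDM and at 9.25, 9.10, 9.41 and 9.11 in KO HDM. WT HDM 1 lay within the KO range, and the difference was 0.26 (SE 0.08, limma adjusted p = 0.0427). The Tnfrsf4 call ended without KO HDM 1 (limma adjusted p = 0.113), KO HDM 3 (adjusted p = 0.147), WT HDM 2 (adjusted p = 0.142) or WT HDM 4 (adjusted p = 0.111), and also relative to the Cd3 genes (adjusted p = 0.129).

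Il2ra, the interleukin-2 receptor chain, lay at 9.01, 9.43, 9.35 and 9.53 in WT HDM. In KO HDM it lay at 9.87, 9.99, 10.56 and 9.53. KO HDM 1, 2 and 3 were above all WT arrays and KO HDM 4 was level with the highest of them. The difference was 0.66 (SE 0.16, limma adjusted p = 0.0174), and without KO HDM 3 it was 0.47 and did not pass (adjusted p = 0.0528). The cytokine Il10 lay in a narrow band from 6.30 to 6.41 in WT HDM, at 6.34, 6.30, 6.41 and 6.39. In KO HDM it lay at 6.72, 7.63, 7.29 and 6.66, so arrays 2 and 3 were high and 1 and 4 lay nearer to WT. The difference was 0.72 (SE 0.15, limma adjusted p = 0.00671). Il21 lay at 6.56, 6.41, 6.82 and 6.85 in WT HDM and at 6.91, 7.33, 7.52 and 6.84 in KO HDM. KO HDM 4 lay inside the WT range, and the difference was 0.49 (SE 0.13, limma adjusted p = 0.0228). Both cytokines are dropped by a filter at the 25th percentile of gene means, and whether they are above background was not tested. The Il21 call ended without KO HDM 2 (0.43), KO HDM 3 (0.36), WT HDM 1 (0.45) or WT HDM 2 (0.40), where limma adjusted p-values lay between 0.0508 and 0.0823.

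For the transcription factors the genotypes overlapped under HDM. Foxp3 lay at 9.12, 8.99, 9.04 and 9.18 in WT HDM and at 9.25, 9.04, 9.31 and 9.29 in KO HDM. Its difference was 0.14 (95% interval 0.01 to 0.27, limma adjusted p = 0.164), and it passed only when KO HDM 2 was left out (0.20, adjusted p = 0.0445) among its 18 alternatives. Gata3 lay at 9.89, 9.79, 9.66 and 9.50 in WT HDM and at 9.64, 9.56, 9.62 and 9.91 in KO HDM. Its difference was -0.03 with a 95% interval from -0.23 to 0.17 (limma adjusted p = 0.881).

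**Figure D2:**
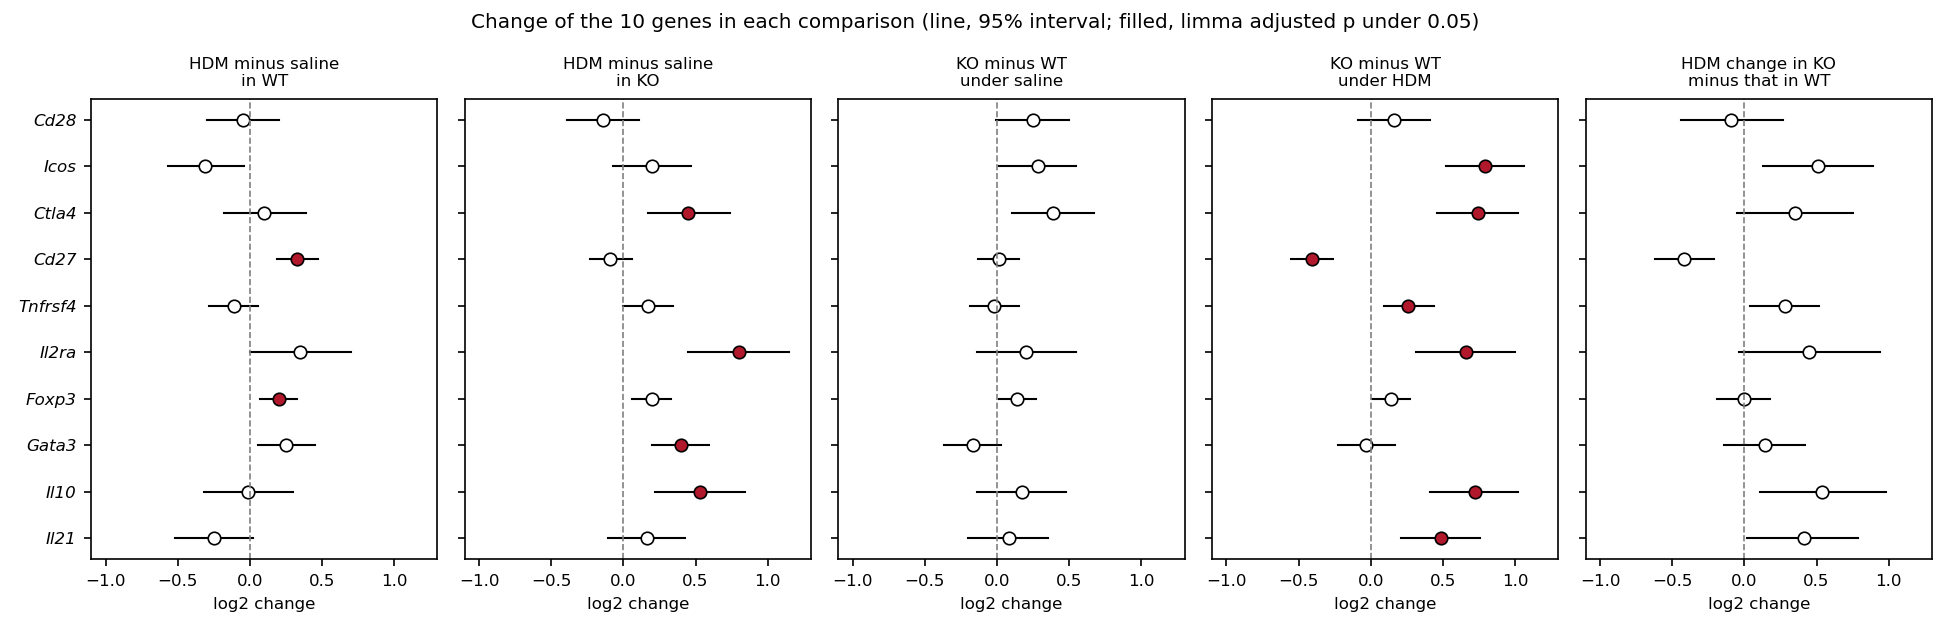
Change on the log2 scale (horizontal axis) of the 10 genes (vertical axis) in the 5 comparisons. Points are estimates, lines are 95% intervals and filled points passed at a limma adjusted p under 0.05. Under HDM 7 genes differed between genotypes, 6 higher and Cd27 lower in KO, against 0 under saline.

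Promoter sequences are shown for some of the genes that differed between genotypes under HDM. RefSeq's promoter table (GRCm38.p6) held entries for 7 of the 10 genes, and those for Icos, Cd28 and Il10 were not among them. The 250 bases before the transcript start are printed for 3 genes that were higher in KO HDM and for Cd27, which was lower. Tnfrsf4, with the smallest difference of those that passed, also had an entry and is not printed. They are given on the gene's strand, 5′ to 3′, with capitals for each match to GGAAA, the core of NFAT sites, or its reverse complement TTTCC. Ctla4 is on the plus strand at chr1:60908775-60909024, Il2ra on the plus strand at chr2:11642542-11642791, Il21 on the minus strand at chr3:37232637-37232886 and Cd27 on the minus strand at chr6:125237028-125237277.
Ctla4: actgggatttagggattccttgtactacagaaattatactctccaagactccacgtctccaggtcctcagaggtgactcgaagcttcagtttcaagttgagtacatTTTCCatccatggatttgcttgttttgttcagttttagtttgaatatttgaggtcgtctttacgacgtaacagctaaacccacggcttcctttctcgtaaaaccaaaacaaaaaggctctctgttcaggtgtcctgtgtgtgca
Il2ra: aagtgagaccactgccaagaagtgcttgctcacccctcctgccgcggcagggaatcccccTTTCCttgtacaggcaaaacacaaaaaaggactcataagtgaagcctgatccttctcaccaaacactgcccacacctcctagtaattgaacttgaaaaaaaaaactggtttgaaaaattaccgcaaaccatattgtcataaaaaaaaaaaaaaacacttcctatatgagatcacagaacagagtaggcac
Il21: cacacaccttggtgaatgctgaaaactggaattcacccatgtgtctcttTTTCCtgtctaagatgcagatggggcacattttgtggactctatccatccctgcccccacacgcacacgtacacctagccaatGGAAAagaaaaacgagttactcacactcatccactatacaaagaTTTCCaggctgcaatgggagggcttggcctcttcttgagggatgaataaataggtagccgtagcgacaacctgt
Cd27: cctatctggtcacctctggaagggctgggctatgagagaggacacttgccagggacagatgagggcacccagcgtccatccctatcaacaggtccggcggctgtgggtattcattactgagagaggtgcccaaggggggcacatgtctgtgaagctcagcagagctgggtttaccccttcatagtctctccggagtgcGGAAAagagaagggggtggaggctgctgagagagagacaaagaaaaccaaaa
GGAAA, on either strand, had 1 match each in the Ctla4, Il2ra and Cd27 windows and 3 in that of Il21. It was found in 55.6% of all 32851 windows of this length in the table. The AP-1 motif TGANTCA (in 6.7% of all windows), the STAT motif TTCNNNGAA (7.0%), the GATA motif AGATAA (10.0%) and TATAAA (12.4%), each searched on both strands, had no match in these 4 windows. A match is a run of letters and no evidence of a bound factor, and a missing match concerns only this window.

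HDM against saline in KO mice asked what the allergen did to these genes without the receptor. It shares the KO HDM arrays with the comparison above. Of the 10 genes 4 rose: Il2ra 1.74-fold, Il10 1.45-fold, Ctla4 1.37-fold and Gata3 1.32-fold. No gene fell, so 4 of 10 passed by limma where 8.84% of all genes did, 4.96% higher and 3.88% lower. At an unadjusted p under 0.05 there were 6 of 10, against 22.7% of all genes. The median change was 0.20 over the 10 genes and -0.03 over all genes. Ranges did not overlap for 3 of the 10, Il2ra, Gata3 and Il10, against 14% of all genes. Without KO saline 1, 2 or 4 or without KO HDM 3, 2 of the 10 passed. Over all genes these fits gave 667 higher and 530 lower, 580 and 475, 784 and 444, and 610 and 424. They stand in place of 989 and 774.

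Il2ra lay at 9.14, 9.02, 9.30 and 9.28 on KO saline arrays 1 to 4, below all KO HDM arrays, and rose by 0.80 (SE 0.16, n = 4 per group, limma adjusted p = 0.00526). It passed under all 19 alternatives, with adjusted p-values between 0.000596 and 0.0234. Gata3 lay at 9.21, 9.36, 9.20 and 9.37 in KO saline, again below every KO HDM array, and rose by 0.40 (SE 0.09, limma adjusted p = 0.0137). Il10 lay at 6.61, 6.64, 6.49 and 6.44 in KO saline and rose by 0.53 (SE 0.15, limma adjusted p = 0.0305). The gap between the groups was 0.02, from KO saline 2 to KO HDM 4. Ctla4 lay at 9.15, 8.99, 9.36 and 9.27 in KO saline and overlapped KO HDM 4. It rose by 0.45 (SE 0.13, limma adjusted p = 0.0445). The Ctla4 call ended without KO saline 1, 2 or 4 and without KO HDM 1, 2 or 3, where adjusted p-values lay between 0.0691 and 0.149. The Il10 call ended without any 1 of the KO saline arrays and without KO HDM 2 or 3, with adjusted p-values between 0.0558 and 0.106. Relative to the Cd3 genes only Il2ra passed among the 10 genes.

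For Foxp3 in KO mice the call depended on the setting. It lay at 9.02, 9.04, 9.04 and 9.00 in KO saline, and the change with HDM was 0.20 (SE 0.06, limma adjusted p = 0.0598). It passed in 5 of 18 alternatives, at adjusted p-values down to 0.0132 without KO HDM 2. KO HDM 2, at 9.04, was level with the saline arrays and the other KO HDM arrays were above them. Icos lay at 10.41, 10.01, 10.28 and 10.23 in KO saline and its change was 0.20 (95% interval -0.07 to 0.47, limma adjusted p = 0.368). Changes of Cd28 (-0.14), Cd27 (-0.09), Tnfrsf4 (0.17) and Il21 (0.16) did not pass either, with limma adjusted p-values between 0.217 and 0.52.

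HDM against saline in WT mice asked the same where the receptor was present. Cd27 rose 1.26-fold and Foxp3 1.15-fold, and no gene fell. So 2 of 10 passed by limma, against 17.6% of all genes (7.86% higher, 9.72% lower), which is near the background. At an unadjusted p under 0.05 there were 5 of 10, against 35.2% of all genes. The median change was 0.05 over the 10 genes and -0.05 over all genes. Ranges did not overlap for these 2 genes, against 23.5% of all genes. Without WT saline 1 or 3, or without 2 and 3 together, 1 of the 10 passed. Over all genes these fits gave 1031 higher and 938 lower, 1163 and 1046, and 646 and 411, in place of 1568 and 1937.

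Cd27 lay at 9.07, 9.23, 9.23 and 9.25 on WT saline arrays 1 to 4, below all WT HDM arrays, and rose by 0.33 (SE 0.07, n = 4 per group, limma adjusted p = 0.00455). Foxp3 lay at 8.80, 8.96, 8.87 and 8.91 in WT saline and rose by 0.20 (SE 0.06, limma adjusted p = 0.0366). Without WT saline 2 and 3 together, Foxp3 did not pass (0.23, limma adjusted p = 0.107) and Cd27 did. The Foxp3 call was also lost without WT saline 1, 3 or 4 and without WT HDM 1 or 4, with adjusted p-values between 0.0558 and 0.107. Gata3, at 9.32, 9.33, 9.55 and 9.62 in WT saline, had a difference of 0.25 (SE 0.09, limma adjusted p = 0.0688), and passed without WT saline 4 (0.31, adjusted p = 0.0488) or WT HDM 4 (0.32, adjusted p = 0.0413). The difference of Il2ra, at 8.69, 9.04, 9.02 and 9.18 in WT saline, was 0.35 (SE 0.16, limma adjusted p = 0.14). Icos, at 9.98, 10.08, 9.86 and 9.89 in WT saline, had a change of -0.31 (SE 0.13, limma adjusted p = 0.0989). It passed without WT HDM 1 (-0.40, adjusted p = 0.0373). Il10 lay between 6.33 and 6.46 in WT saline, and its change of -0.01 had a 95% interval from -0.32 to 0.30. Ctla4 (0.10), Il21 (-0.25), Tnfrsf4 (-0.11) and Cd28 (-0.05) did not pass, with limma adjusted p-values between 0.171 and 0.778.

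KO against WT under saline asked how the genotypes differed without allergen. By limma 0 of the 10 genes passed, against 0.231% of all genes (0.0903% higher, 0.14% lower), and 3 had an unadjusted p under 0.05, against 7.81% of all genes. The smallest adjusted p was 0.385, for Ctla4. Without WT saline 2 and 3 the count was also 0, and over all genes it was 3 higher and 7 lower in place of 18 and 28. Ctla4 lay at 8.79, 8.80, 8.78 and 8.85 on WT saline arrays and above that on every KO saline array, with a difference of 0.39 (SE 0.13, 95% interval 0.10 to 0.67). Cd28 was at 9.55, 9.50, 9.52 and 9.58 in WT saline and at 9.78, 9.59, 9.86 and 9.90 in KO saline, with a difference of 0.25 (SE 0.12, limma adjusted p = 0.657). Foxp3 also had ranges that did not overlap (difference 0.14, SE 0.06, limma adjusted p = 0.576). That made 3 of 10 genes with separate ranges, against 6.54% of all genes. Icos overlapped, with a difference of 0.28 (SE 0.13, limma adjusted p = 0.598). For the cytokines the difference was 0.17 for Il10 (95% interval -0.14 to 0.48) and 0.08 for Il21 (95% interval -0.20 to 0.35). Il2ra differed by 0.20, Gata3 by -0.17, Tnfrsf4 by -0.02 and Cd27 by 0.01. Il21 lay at 7.06, 6.93, 6.92 and 6.75 in WT saline and at 7.04, 7.05, 7.00 and 6.87 in KO saline. Tnfrsf4 lay at 9.15, 9.02, 8.99 and 9.07 in WT saline and at 9.16, 8.98, 9.04 and 9.00 in KO saline. Cd27 lay at 9.17, 9.07, 9.29 and 9.28 in KO saline.

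The last comparison asked whether the HDM change itself differed between genotypes, as the change in KO minus that in WT. By limma 0 of 10 genes passed, against 0.802% of all genes (0.356% higher, 0.446% lower), although 5 had an unadjusted p under 0.05, against 15.6% of all genes. Cd27 was nearest, with an HDM change 0.42 lower in KO (difference -0.42, SE 0.10, limma adjusted p = 0.0515). Il10 had a difference of 0.54 (SE 0.21, limma adjusted p = 0.21), Icos 0.51 (SE 0.18, adjusted p = 0.177), Il2ra 0.45, Il21 0.41, Ctla4 0.35 and Tnfrsf4 0.28. Foxp3 had a difference of 0.00 after rounding, with a 95% interval from -0.19 to 0.18. Hence a gene that passed with HDM in 1 genotype and not in the other, such as Il10 or Cd27, is not shown to respond differently. Without WT saline 2 and 3 the count was also 0, and over all genes it was 8 higher and 4 lower in place of 71 and 89. Cd27 passed in 7 of 27 alternatives, among them the fit without WT HDM 1. KO HDM 4 was the lowest of its group for Cd28, Icos, Ctla4, Il2ra, Il10 and Il21. Without it Cd27, Ctla4, Icos and Il10 passed, at limma adjusted p-values between 0.0238 and 0.044. The count over all genes rose in that fit too, to 512 higher and 507 lower in place of 71 and 89. Leaving out an array that is low for Ctla4, Icos and Il10 raises their KO HDM means by construction.

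Among the ligands of these receptors 1 gene differed between genotypes under HDM, and among their partner chains 4 did. The gene lists that follow were chosen with earlier results of these data known, and counts are from the same fit over all genes. They are read against the shares of all genes that passed, which were 11.7% between genotypes under HDM, 17.6% with HDM in WT and 8.84% with HDM in KO. The ligands, at 1 of 6, were near that background. Of 6 ligands, Cd86 alone was higher in KO than WT under HDM (0.60, limma adjusted p = 0.0242), and Cd80 alone rose with HDM in WT (0.57, adjusted p = 0.0334). Without WT saline 2 and 3, Cd80 did not pass (0.65, limma adjusted p = 0.1). Icosl (0.07), Cd70 (0.12), Tnfsf4 (0.04) and Il2 (0.19) did not pass between genotypes under HDM, and the list median was 0.12. Of 13 measured receptor chains and signalling partners, 4 were higher in KO under HDM and none was lower (median 0.15). They were the receptor chains Il10ra (0.50), Il21r (0.47) and Il2rb (0.42), and Stat5a (0.23), a transcription factor downstream of interleukin-2. Il10ra lay between 9.93 and 10.35 in KO HDM and between 9.27 and 9.91 in WT HDM. Il2rb lay between 9.25 and 9.76 in KO HDM and between 9.01 and 9.08 in WT HDM. The groups did not overlap for either gene, and the gap was small for Il10ra.

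Other receptors of activated T cells were also higher in KO under HDM. Of 11 further costimulatory and inhibitory receptors 3 were higher and none lower (median 0.31): the costimulator Tnfrsf9 (4-1BB, 0.70), the checkpoint Lag3 (0.37) and the checkpoint Pdcd1 (PD-1, 0.31). Pdcd1 lay between 8.93 and 9.04 in KO HDM and between 8.50 and 8.89 in WT HDM. With HDM in KO, Tnfrsf9 rose by 0.87 (limma adjusted p = 0.00458) and Cd96 fell by 0.45 (adjusted p = 0.0278). With HDM in WT the inhibitory receptor Havcr2 (TIM-3) alone of this list passed, and rose by 0.84 (limma adjusted p = 0.00193). Of 13 other regulatory T cell genes Tigit (0.65) and Itgb8 (0.26) were higher and Nrp1 (-0.32) was lower in KO under HDM (median 0.09). Ikzf2, a factor of regulatory T cells, rose with HDM in WT (0.30, limma adjusted p = 0.00396) and Tnfrsf18 (GITR) rose in KO (0.33, adjusted p = 0.0457). Ebi3, a subunit of interleukin-27 and interleukin-35, rose in WT (0.21) and in KO (0.29).

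Several genes of type 2 helper T cells were higher too. Of 11 measured, 5 were higher in KO than WT under HDM and none was lower (median 0.30): the chemokine receptors Ccr8 (0.96, limma adjusted p = 0.000371) and Ccr4 (0.49), the interleukin-25 receptor Il17rb (0.61), the receptor chain Il4ra (0.40) and Il13 (0.30), the last named after its value was seen. With HDM in KO 5 rose, Ccr8 (0.98), Il17rb (0.78), Il5 (0.49), Il4 (0.45) and Maf (0.20). With HDM in WT Maf (0.31, limma adjusted p = 0.00278) and Stat6 (0.18, adjusted p = 0.043) rose. Ccr8 lay between 8.40 and 9.08 in KO HDM and between 7.49 and 7.96 in WT HDM. The HDM change differed between genotypes for Ccr8 (1.02, limma adjusted p = 0.0147) and Il17rb (0.68, adjusted p = 0.0175). Neither passed without WT saline 2 and 3 (0.92 and 0.63, limma adjusted p = 0.114 and 0.118) or with the clock score described below as a covariate (0.60 and 0.59, adjusted p = 0.304 for both). Few genes of any kind passed in those fits: 8 higher and 4 lower without the 2 arrays and 0 with the clock score, in place of 71 higher and 89 lower. Of 9 type 1 helper genes Stat4 and Il18rap were higher in KO under HDM (median -0.00), none of 5 type 17 genes passed, and of 6 follicular helper genes Bcl6 was lower (-0.27).

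**Figure D3:**
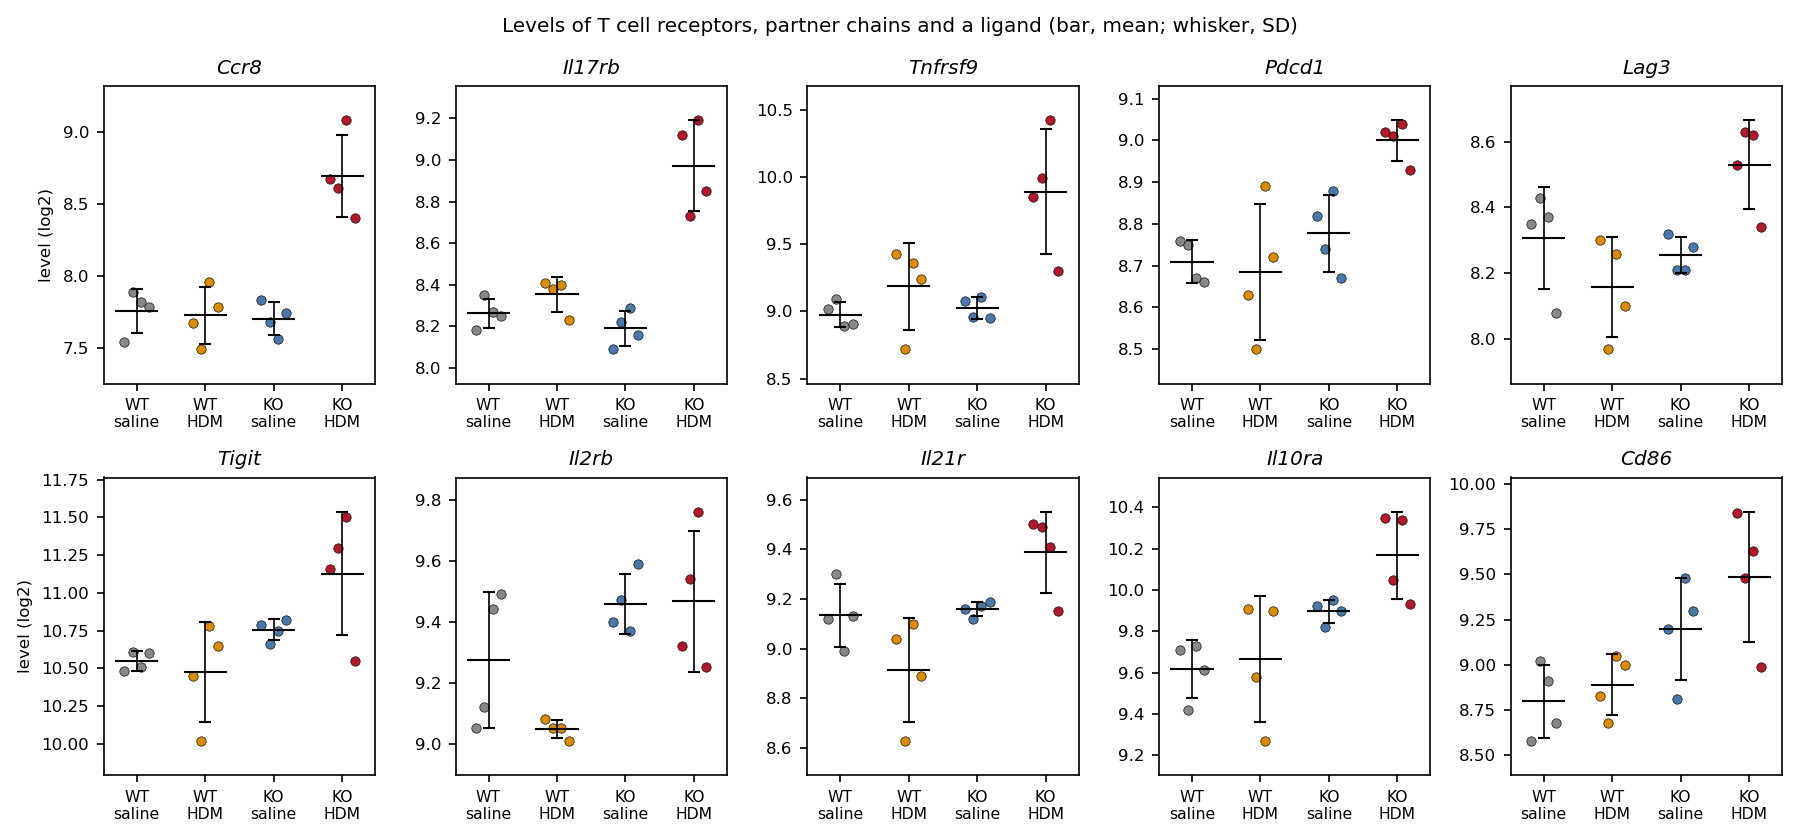
Log2 level (vertical axis) of 10 genes around the members in the 4 groups (horizontal axis), with points for arrays 1 to 4, bars for means and whiskers for SDs (n = 4). They are Ccr8, Il17rb, Tnfrsf9, Pdcd1, Lag3, Tigit, the chains Il2rb, Il21r and Il10ra and the ligand Cd86, all higher in KO than WT under HDM by limma, and Ccr8 in KO HDM (8.40 to 9.08) lies above every other group. Only genes that passed as higher are shown. Genes of the same lists that did not pass, or that were lower such as Nrp1 (-0.32), are left out.

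Among 15 measured pan-T genes, Lat was higher (0.18) and Trat1 lower (-0.39) in KO under HDM, with a list median of -0.03 against 0.02 over all genes. The mean level of the list lay between 9.24 and 9.31 on KO HDM arrays and between 9.25 and 9.41 on WT HDM arrays. The 4 Cd3 genes had a mean of 9.67 in WT HDM and in KO HDM, so levels relative to it could hardly change the differences between these groups. Singly they differed by 0.21 (Cd3e), 0.08 (Cd247), 0.03 (Cd3d) and -0.31 (Cd3g), and none passed. Relative to their mean on the same array, Icos, Ctla4, Il2ra, Il10, Il21 and Cd27 passed between genotypes under HDM, with changes of 0.79, 0.74, 0.66, 0.71, 0.48 and -0.41. With HDM in WT, Cd4 rose (0.36) and 4 pan-T genes fell: the cytotoxic T cell co-receptor Cd8a (-0.34), Lat (-0.25), Cd3d (-0.22, limma adjusted p = 0.0165) and Thy1 (-0.21). Cd3d is 1 of the 4 genes of the Cd3 mean. With HDM in KO none rose, and Trat1 (-0.62), Cd8a (-0.40) and Thy1 (-0.24) fell. The HDM change of Trat1 differed between genotypes, and was lower in KO (-0.66, limma adjusted p = 0.0421). That call was lost without WT saline 2 and 3 (-0.69, adjusted p = 0.148) and with the clock score described below (-0.41, adjusted p = 0.576). Without WT saline 2 and 3, 1 of the 15 genes fell with HDM in WT and none rose.

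Markers of other cells that can carry these genes also moved. Group 2 innate lymphoid cells carry Gata3, Icos and Il2ra. Of 7 measured genes of that list, 3 were higher (Arg1 1.94, Klrg1 1.01 and Il17rb 0.61) and Hs3st1 (-0.55) was lower in KO under HDM. The rest of the list did not pass, and Il17rb and Il5 are also counted among the type 2 helper genes above. For the difference of HDM changes Arg1 (2.71, limma adjusted p = 0.0289) and Il17rb passed. No gene of the list passed there without WT saline 2 and 3 or with the clock score. The mean level of the 7 genes, in which Arg1 had the largest change, was 9.15 to 9.45 in KO HDM and 8.65 to 8.98 in WT HDM. It was 8.55 to 8.79 in WT saline and 8.49 to 8.61 in KO saline. Arg1 is also made by macrophages and Klrg1 by T and NK cells, and the part of these cells in the result was not tested. Dendritic cell genes were higher in 5 of 11 cases and lower in 1, mast cell and basophil genes in 4 and 1 of 12, eosinophil genes in 3 and 0 of 7, and monocyte and interstitial macrophage genes in 1 and 0 of 9. Alveolar macrophage genes were lower in 2 of 8. None of 9 B cell genes, 10 NK and cytotoxic genes and 7 plasma cell genes passed by limma, and the B cell median was 0.40. The mean level of the B cell list ran from 9.40 to 10.43 in WT HDM and from 10.18 to 10.86 in KO HDM. Of 8 naive and memory T cell genes Cd69 and Itgae were higher. Of 9 lymph node and thymus genes Cxcl13 was higher, and the mean level of that list was 8.43 to 8.67 in KO HDM and 8.16 to 8.53 in WT HDM. Under saline it was 8.85 to 9.11 in WT and 8.88 to 9.05 in KO. The part of these cells and tissues was not tested.

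Circadian clock genes differed between the same groups. Of 13 measured, 1 was higher and 7 were lower in KO than WT under HDM, and 7 rose and 1 fell with HDM in WT (4 and 1 without WT saline 2 and 3). A clock score, the mean of their standardised levels with each gene's sign taken from the first principal component so that Dbp counts as positive, lay between 0.07 and 1.91 on WT HDM arrays and between -0.68 and 0.19 on KO HDM arrays. It lay between -0.49 and -0.27 in WT saline and between -0.90 and -0.13 in KO saline. With this score as a covariate, 0 of the 10 genes passed between genotypes under HDM by limma, while the count over all genes was 17 higher and 7 lower in place of 1164 and 1163. The median SE of the genes examined was then 1.39 times as large. Changes were 0.44 for Icos (SE 0.16), 0.69 for Ctla4 (SE 0.21), 0.59 for Il10, 0.52 for Il2ra, -0.34 for Cd27, 0.18 for Il21 and 0.04 for Tnfrsf4, and none passed. In the same fit 0 of 11 type 2 helper genes passed, with Ccr8 at 0.55 (limma adjusted p = 0.128). The count was also 0 for the receptor chains and signalling partners and for the other costimulatory and inhibitory receptors. It was 0 as well for the group 2 innate lymphoid and dendritic cell genes. For HDM in KO, whose clock scores overlapped those of KO saline, Ctla4, Foxp3, Gata3, Il10 and Il2ra passed with the covariate. The count over all genes in that comparison rose as well, to 1253 higher and 1249 lower in place of 989 and 774. For the difference of HDM changes 0 of all genes passed with it by limma, and 1456 had an unadjusted p under 0.05.

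**Figure D4:**
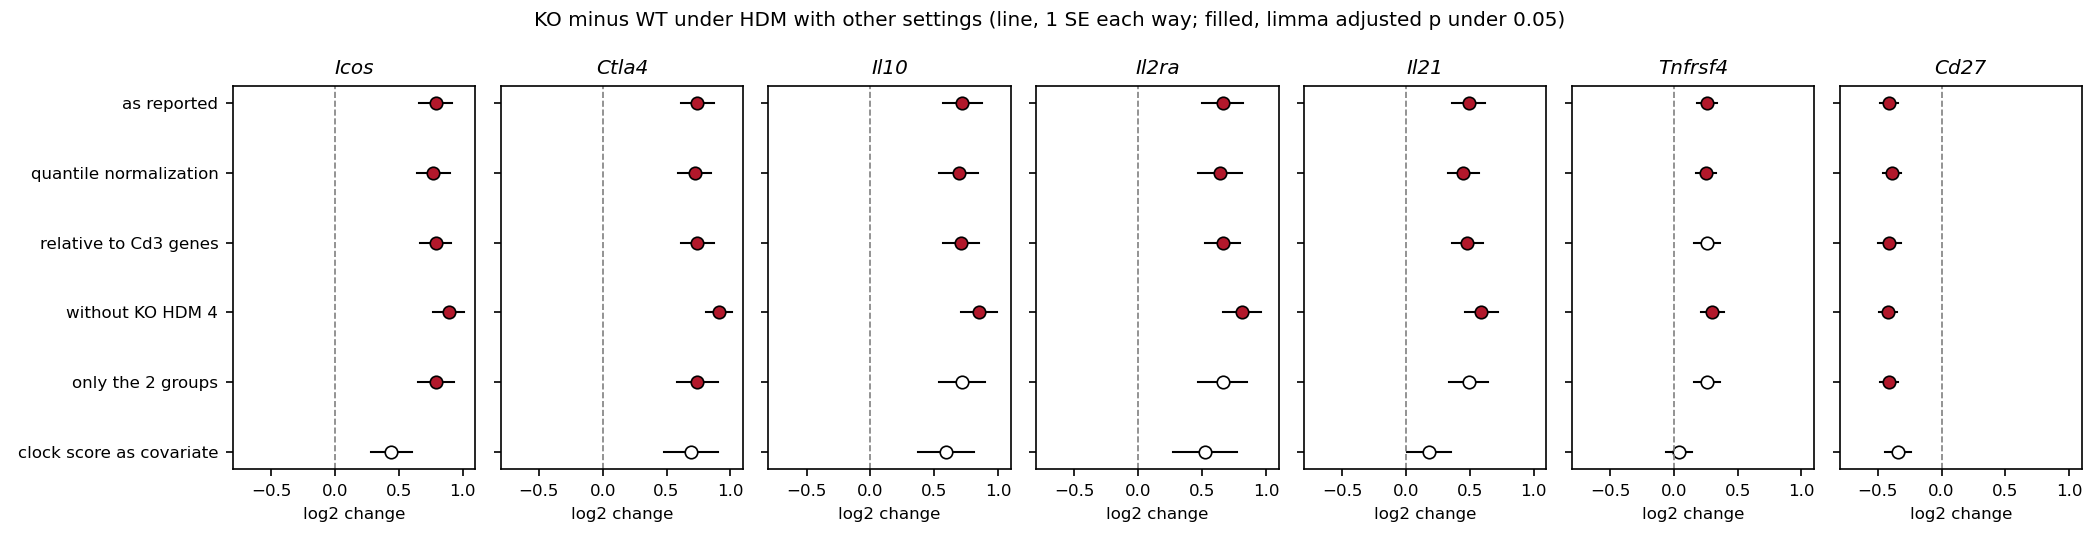
Change between KO and WT under HDM (horizontal axis, log2) of the 7 genes that passed, under 6 settings (vertical axis). Points are estimates, lines are 1 SE each way, and filled points passed at a limma adjusted p under 0.05. Each gene kept its sign in all 6, Icos, Ctla4 and Cd27 passed in 5, and none of the 7 passed with the clock score as a covariate. The settings are a selection, and KO HDM 4 is the only left-out array shown. The fit without KO HDM 3, where Il2ra, Il21 and Tnfrsf4 did not pass, is not shown.

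The genes whose levels ran most like those of the members were sought by Pearson correlation over the 16 arrays, without members, predicted genes, small RNAs and receptor segments. The 16 arrays share the 4 groups, so any gene with the same group means scores high, and no p-value is given. For Icos these were Cenpm (0.94), Septin1 (0.94), Cdc7 (0.93), Marcksl1 (0.93) and Rad54l (0.93). For Ctla4 they were Trappc1 (0.94), Copb1 (0.94) and Tbcd (0.92), followed by Pdia6 (0.92) and Tyms (0.92). Il2ra ran most like Rbpj (0.95), Pla2g4c (0.94) and Ttc39c (0.94), Il10 most like Cfi (0.93) and Nme2 (0.92), and Il21 most like Il1r2 (0.89). Foxp3 ran most like Unc93b1 and Arrb2 (0.89 each), Gata3 most like Myocd (0.89), Tnfrsf4 most like Ccdc88b (0.89) and Cd28 most like Cdh17 and Rhoh (0.90 each). Cd27 ran most like Meig1 (0.94) and Ocrl (0.93).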

How the data were processed

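The study hybridised lung RNA to 16 Affymetrix arrays of whole-transcript design, 4 of them in each group. The deposited table holds log2 values that the authors made with RMA in Affymetrix Expression Console, per the submitters' processing notes, with versions and genome build not given in the sources used here. RMA corrects background, quantile-normalizes the arrays and summarises probes, so levels are relative. Of 35556 probe sets, 21789 had 1 gene symbol, 1621 several and 12146 none. Where a gene had several probe sets (999 genes), that with the highest mean over all arrays was kept, which left 19938 genes and no filter on low values. limma 3.58.1 in R 4.3.3 fitted 4 group means, with 12 residual degrees of freedom and Benjamini-Hochberg adjustment over all genes for each of 5 comparisons. The comparisons share arrays. The fit was tested on simulated data. The genes and the 21 gene lists used for comparison were chosen with earlier results of these data known. All 10 genes are named in each comparison. From each list up to 4 genes with the largest changes among those that passed were eligible, or the 2 with the smallest p-values, and for each of the 10 the 5 genes most like it. Outside this rule, Il13, Maf and the ligands Icosl, Cd70, Tnfsf4 and Il2 are named after their values were seen. The single changes of the 4 Cd3 genes between genotypes under HDM were also added afterwards. Precision is limited by the number of arrays. Alternatives covered scaling, filters, variance estimation, left-out arrays and covariates.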

Additional observations from a re-analysis of the deposited data

Results flagged for a closer look

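Cd27 in WT saline replicate 1 lay at 9.07, below the other 3 arrays of that group at 9.23 to 9.25, and its gap took up 0.894 of the group's range, which is above Dixon's 95% critical value for 4 samples. In all, 40 groups of 4 values were tested, and chance alone marks about 1 in 20. Cd27 still rose with HDM in WT when that array was left out.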

How the results depend on the processing

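Over the alternatives 950 of 1020 single-gene values stayed on their side of the limma threshold, 50 lost a call, 20 gained one and none that passed changed sign; 30 changed sign among values that passed in neither fit. Between genotypes under HDM the 7 genes that passed became 4 with the filter at the 50th percentile, which drops Il10, Il21, Tnfrsf4 and Foxp3, 3 with only the groups compared, 4 with a 1.5-fold minimum and 0 with the clock score as a covariate. Over all genes 1164 higher and 1163 lower became 192 and 198 with only the groups compared and 17 and 7 with the clock score. Of the 9969 genes kept by the filter, 941 were higher and 982 lower. With HDM in KO the 4 became 2 with only the groups compared, 1 relative to the Cd3 genes and 1 with a 1.5-fold minimum, and 5 with Foxp3 added under quantile normalization, array weights or the clock score. Over all genes the reported fit gave 989 higher and 774 lower there. Quantile normalization gave 979 and 974, array weights 1583 and 1355, and the clock score 1253 and 1249. Only the groups compared gave 852 and 752, and levels relative to the Cd3 genes gave 499 and 517. No count over all genes is given for the 1.5-fold minimum. With HDM in WT the 2 became 1 with the filter at the 50th percentile, with only the groups compared, without WT saline 2 and 3 together and relative to the Cd3 genes, and 0 with the clock score or a 1.5-fold minimum. Over all genes 1568 higher and 1937 lower became 1332 and 1455 with only the groups compared and 646 and 411 without the 2 arrays. They became 978 and 228 relative to the Cd3 genes and 552 and 604 with the clock score. For the difference of HDM changes, 0 became 1 (Cd27) with either filter, array weights, the replicate block and relative to the Cd3 genes. Over all genes 71 higher and 89 lower became 339 and 341 with array weights and 104 and 154 with the replicate block. Relative to the Cd3 genes they became 49 and 110. Leaving out each array in turn gave 4 to 7 genes between genotypes under HDM, 2 to 4 with HDM in KO, 1 to 2 with HDM in WT and 0 to 4 for the difference. Under saline 0 passed in every alternative run. Except for genes removed by a filter, the cause was not tested.

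Replicate numbers recur in each group, but arrays with the same number did not deviate together: correlations of deviations from group means ran from -0.276 to 0.333 (median 0.0417, 24 pairs), against -0.394 to 0.391 for other pairs. With the replicate block 7 genes passed between genotypes under HDM, 3 with HDM in KO, 3 with HDM in WT (Icos added, limma adjusted p = 0.0442), 0 under saline and 1 for the difference. The number of arrays, 4 in a group, limits the precision of every value.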

Other observations

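Genes of T cell survival and traffic outside the 10 also moved with HDM. Il7r, the interleukin-7 receptor chain, rose by 0.68 in WT (limma adjusted p = 0.0131) and by 0.94 in KO (adjusted p = 0.00204), with KO HDM arrays between 12.07 and 12.52 and KO saline arrays between 11.15 and 11.46. S1pr1, a receptor for exit from lymphoid tissue that lung endothelium also carries, fell by 0.28 in WT and by 0.30 in KO. Il23r, a receptor chain of type 17 cells, was higher in KO than WT under saline by 0.47 (limma adjusted p = 0.024, SE 0.09, with 4 arrays a group), with KO arrays at 8.73, 8.40, 8.76 and 8.75 and WT arrays at 8.16, 8.19, 8.03 and 8.37. Without WT saline 2 and 3 it did not pass (0.39, limma adjusted p = 0.313), in a fit with 3 higher and 7 lower over all genes. It fell with HDM in WT by 0.38 and in KO by 0.89, and the difference of these changes did not pass (-0.51, limma adjusted p = 0.0554).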
